A study of Homo sapiens with 2 samples.

Results

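The genes described here are 10 immediate early and AP-1 genes, FOS, FOSL1, JUN, JUNB, ATF3, EGR1, KLF6, MYC, IER3 and DUSP1, in Huh-7 cells, a human hepatocellular carcinoma line. The deposited files list exons by position and strand, without gene names, so each gene was taken as all exon rows that lie inside a fixed hg19 window on its strand. This gave 30 of the 239322 exon rows. The cells, at passage 15 to 20, were kept for 24 h with 0.1 mM BS008, an amiloride derivative, or with 0.1% DMSO as the control, and mRNA was sequenced from 1 library for each condition. The labels do not say whether the BS008 cells also received DMSO, and the general treatment note of both samples names BS008, so the groups were taken from the treatment entry of each sample. With 1 library for each condition there was no replicate error and no test, and every interval below covers the sampling of reads only. The effect of BS008 and a difference between cultures or libraries cannot be told apart.

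Immediate early genes are transcribed within minutes of a growth signal or a stress, without the need for newly made protein, and their mRNAs are usually short-lived. Several of them code for subunits of AP-1, a dimeric transcription factor that is formed by proteins of the FOS, JUN and ATF families and is downstream of the MAP kinases. Others code for zinc finger factors, for MYC, or for proteins that limit the same signalling, such as the phosphatase DUSP1. In liver, these genes are best known for their early rise after partial hepatectomy.

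The control library held 55476654 reads on exon rows and the BS008 library 53578432. A gene with 0 reads may thus have a share of up to 5.4e-06% of the control library or 5.6e-06% of the BS008 library (3 reads). The labelled cell type was checked with 6 hepatocyte markers, which lay between 10.3 (TTR) and 4442 (ALB) CPM (counts scaled to the library total) in control cells, and between 7.26 and 5220 CPM after BS008. PTPRC, COL1A1, COL1A2 and CDH5, markers of leukocytes, fibroblasts and endothelium, had at most 22 reads in either library. For all of these markers, only rows with the length of an exon of the gene in GENCODE release 29 were summed. The marker values may thus cover only a part of a gene. Mitochondrial rows held 11.8% of the control reads and 13.1% of the BS008 reads.

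All 10 genes were higher in BS008-treated cells. Reads on the 30 rows made up 0.0330% of the control library (95% Wilson interval 0.0325 to 0.0334%) and 0.141% of the BS008 library (0.140 to 0.142%), that is 18289 and 75803 reads. This is a ratio of 4.29 on CPM (95% interval 4.22 to 4.36). The ratio of single genes went from 2.28 for JUN to 15.6 for EGR1, with a median of 5.03. It was at least 4 for 7 of the 10 genes. MYC and IER3 together held 65.5% of the control reads of the set and 57.4% of its BS008 reads.

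Start regions of these genes are shown first, because some of the motifs through which immediate early genes are known to be induced lie there. The RefSeq starts (GRCh38.p14) used here covered 7 of the 10 genes, FOS, JUN, JUNB, ATF3, EGR1, KLF6 and DUSP1, in 8 windows, as ATF3 has 2. FOSL1, MYC and IER3 were not analysed here for their starts. The 250 bases before each start were searched on both strands for 4 motifs, the CRE-like motif TGACNTCA (bound by ATF, CREB and JUN dimers), the AP-1 motif TGANTCA, the CArG box (bound by serum response factor) and TATAAA. The CRE-like motif was found in 4 of the 8 windows, 1 each of JUN, ATF3, KLF6 and DUSP1, and in 6.87% of the 35116 start windows of all genes. The CArG box was found in 1 of the 8, that of EGR1, in 2 places, and in 1.16% of all windows. TATAAA was found in 4 of the 8 (1 each of FOS, JUNB, DUSP1 and ATF3) and in 10.7% of all windows, and the AP-1 motif in 0 of the 8 and in 6.57% of all windows. No match of one motif overlapped a match of another in these windows. A match describes the letters and is no evidence that a factor is bound. Bases further upstream were not searched. A window without a match, such as that of FOS for the CArG box, thus does not mean that the gene lacks the motif. The following 4 windows end at the base before the start, run 5′ to 3′ on the strand of the gene, and carry the CRE-like motif (JUN, KLF6, DUSP1) or the CArG boxes (EGR1) in capitals. They are chr1:58784048-58784297 (minus strand), chr10:3785210-3785459 (minus), chr5:172771196-172771445 (minus) and chr5:138465229-138465478 (plus). ATF3 is not printed, as it has a pair of starts and no coordinates were converted to place them among its rows. Whether either window lies just before the first ATF3 row with reads was not checked. The CRE-like match of ATF3 would then lie near its row without reads, and its TATAAA match before an internal row. Both matches are in the motif counts above but probably lie away from the start in use.
JUN: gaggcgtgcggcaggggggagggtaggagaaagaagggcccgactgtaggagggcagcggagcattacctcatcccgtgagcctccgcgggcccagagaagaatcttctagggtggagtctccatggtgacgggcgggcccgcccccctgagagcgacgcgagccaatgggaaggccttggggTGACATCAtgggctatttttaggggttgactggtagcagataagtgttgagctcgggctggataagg
KLF6: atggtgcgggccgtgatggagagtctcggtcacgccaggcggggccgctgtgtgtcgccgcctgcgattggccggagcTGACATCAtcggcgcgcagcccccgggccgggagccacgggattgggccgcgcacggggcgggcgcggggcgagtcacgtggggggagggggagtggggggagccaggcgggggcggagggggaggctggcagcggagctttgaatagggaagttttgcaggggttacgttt
DUSP1: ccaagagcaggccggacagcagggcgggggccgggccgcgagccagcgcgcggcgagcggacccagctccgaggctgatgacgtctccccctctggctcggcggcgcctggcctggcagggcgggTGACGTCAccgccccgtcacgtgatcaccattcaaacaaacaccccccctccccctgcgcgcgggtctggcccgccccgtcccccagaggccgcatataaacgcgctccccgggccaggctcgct
EGR1: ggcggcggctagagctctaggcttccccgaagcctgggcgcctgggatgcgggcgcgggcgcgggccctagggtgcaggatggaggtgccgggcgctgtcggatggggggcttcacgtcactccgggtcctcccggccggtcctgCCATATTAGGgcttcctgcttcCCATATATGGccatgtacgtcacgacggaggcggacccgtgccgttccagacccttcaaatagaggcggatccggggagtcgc
In JUN the motif TGACATCA begins 67 bases before the start, in KLF6 the same letters begin 172 bases before it, and in DUSP1 the motif TGACGTCA begins 125 bases before it. The CArG boxes of EGR1 begin 105 and 83 bases before its start.

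The genes were then ranked by level, as the RPKM of the summed rows, which scales reads to length and to the library total, so that genes of different length could be compared. In control cells the order was IER3, MYC, JUN, KLF6, JUNB, DUSP1, EGR1, ATF3, FOSL1 and FOS, from 67.8 for IER3 down to 0.602 for FOS. The counting intervals of JUNB and DUSP1 overlapped, as did those of DUSP1 and EGR1, and the other neighbours in this order were apart. In BS008-treated cells IER3 and MYC were still the highest, at 205.5 and 196.3 RPKM. These levels include a MYC row at 3.05 RPKM and an IER3 row at 76.8 RPKM, which are described below. The order of this pair after BS008 thus depends on the rows that are summed. EGR1 went from rank 7 to rank 3, JUN from rank 3 to rank 5, and FOSL1 took the place of FOS as the lowest. In that order the intervals of ATF3 and JUNB overlapped and the others did not.

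**Figure D1:**
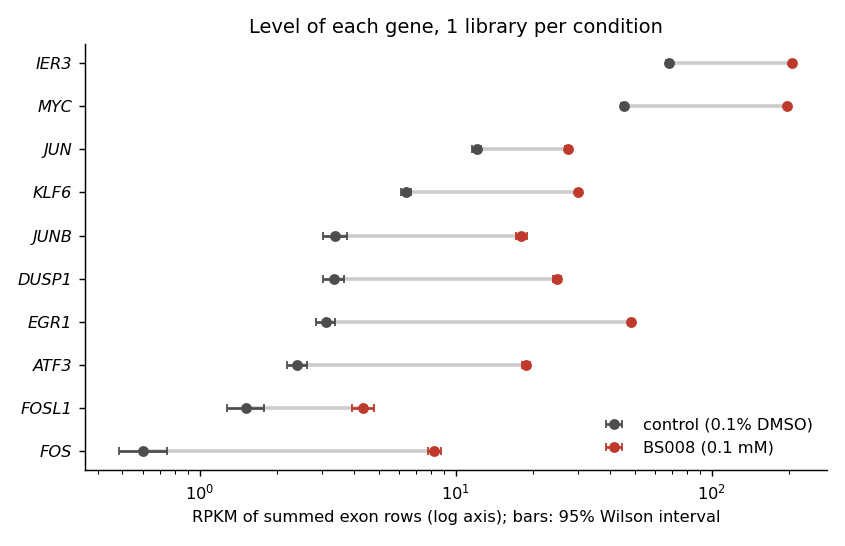
Level of the 10 genes in control (grey) and BS008-treated cells (red), as RPKM on a log axis, with 95% Wilson intervals for the sampling of reads. Each BS008 point lies to the right of its control point, with the widest gaps for EGR1 (3.11 to 48.5) and FOS (0.602 to 8.25).

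FOS and FOSL1 (FRA-1) belong to the FOS family, whose members typically bind DNA as dimers with a JUN protein. FOS lies on the plus strand of chromosome 14, and its 4 rows run from 75745481 to 75748935. They held 80 reads in the control library and 1060 in the BS008 library, a ratio of 13.7 on CPM (95% interval 10.9 to 17.4). This was the lowest gene of the set in control cells, with the second largest ratio. FOSL1 (chromosome 11, minus strand, 65659692 to 65667997) had 140 and 389 reads over 4 rows, a ratio of 2.88 (2.37 to 3.52). The intervals of FOS and FOSL1 did not overlap.

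JUN and JUNB code for JUN family subunits, and both genes are known to lack introns. Each was a single row in the files. JUN (chromosome 1, minus strand, 59246464 to 59249785) went from 2226 control reads to 4892 BS008 reads, a ratio of 2.28 (2.16 to 2.39) and the smallest of the 10. JUNB (chromosome 19, plus strand, 12902286 to 12904124) had 345 and 1780 reads, a ratio of 5.34 (4.76 to 6.01). JUNB was thus the lower of the pair in both libraries per length (3.38 against 12.1 RPKM before and 18.1 against 27.5 RPKM after BS008), with the larger ratio.

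ATF3 is a stress-induced bZIP factor that pairs with JUN proteins and with itself. Its 4 rows lie on the plus strand of chromosome 1, from 212738697 to 212794114, and held 439 control reads and 3327 BS008 reads. The ratio was 7.85 (7.10 to 8.69). All of these reads were on the 3 downstream rows. The most upstream row (212738697 to 212738825, 129 bases), which lies apart from the others, had 0 reads in both libraries, so that no use of it was detectable at this depth. A count of 0 there allows a share of the ATF3 reads of up to 0.683% in the control library and 0.0902% in the BS008 library (3 reads).

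EGR1 and KLF6 code for zinc finger transcription factors that bind GC-rich sites. EGR1 went from 541 control reads to 8144 BS008 reads on 2 rows of the plus strand of chromosome 5 (137801181 to 137805004). Its ratio of 15.6 (14.3 to 17.04) was the largest of the set, and 0.0716% of all exon rows with at least 100 reads had a log2 ratio as high. That share sets the summed gene (log2 ratio 3.89) against single rows, among them an EGR1 row at 3.92. KLF6, on 4 rows of the minus strand of chromosome 10 (3818189 to 3827473), had 2120 and 9656 reads, a ratio of 4.72 (4.50 to 4.95). The KLF6 row from 3822519 to 3824406 spans 1888 bases, and reads on a retained intron within it could not be counted apart.

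MYC codes for a basic helix-loop-helix factor of cell growth and is often amplified in liver cancer. With 6746 control reads and 28207 BS008 reads, it had the most reads of the set in both libraries. These lie on 4 rows of the plus strand of chromosome 8 (128747765 to 128753678), and the ratio was 4.33 (4.22 to 4.45). The genes of its partner MAX and of its antagonists are described with the pathway genes below.

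IER3 (IEX-1) is a short-lived regulator of survival and ERK signalling, and DUSP1 (MKP-1) removes phosphate from the MAP kinases. The IER3 window on the minus strand of chromosome 6 held 3 rows with 5227 and 15293 reads, a ratio of 3.03 (2.94 to 3.13). One of the 3, from 30710304 to 30710453, has the length of an exon of FLOT1, the gene next to IER3, and went from 372 to 617 reads, a ratio of 1.72 (1.51 to 1.96). The IER3 log2 ratio was 1.59 with this row and 1.64 without it. DUSP1, on 3 rows of the minus strand of chromosome 5 (172195102 to 172198203), had 425 control reads and 3055 BS008 reads, a ratio of 7.44 (6.72 to 8.26).

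Each exon row was then compared with all other rows of the files. For this, log2 ratios of BS008 to control were taken on CPM values with a pseudocount of 0.5, which understates the change of rows with few reads, and a row was called higher or lower from a 2-fold change, given at least 10 reads in either library. Of the 30 rows, 29 had enough reads and 24 of these were called higher (82.8%), while 3.73% of all 131330 rows tested were. None of the 29 was called lower, against 3.79% of all rows. The log2 ratio was above 0 for 29 of the 29 rows, with a median of 2.04, and above 0 for 46.8% of all rows, with a median of -0.04. For the summed counts of the 10 genes the median log2 ratio was 2.28.

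Most of the 5 rows that were not called had few reads. They were the 3 upstream rows of FOSL1 (log2 ratios 0.99, 0.70 and 0.49, with at most 45 reads in either library), the most upstream row of MYC (26 and 52 reads, log2 ratio 0.60) and the IER3 row with the length of a FLOT1 exon (log2 ratio 0.74). Without the pseudocount, 4 of the 5 had a ratio of at least 2 on CPM, with 5.44, 2.59 and 2.65 for the FOSL1 rows and 2.07 for the MYC row, against 1.72 for the IER3 row. The MYC row, from 128747765 to 128748082, lies before the row that holds most of the upstream reads of the gene. It had a level of 1.47 and 3.05 RPKM, against 43.7 and 166.1 for the next row.

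**Figure D2:**
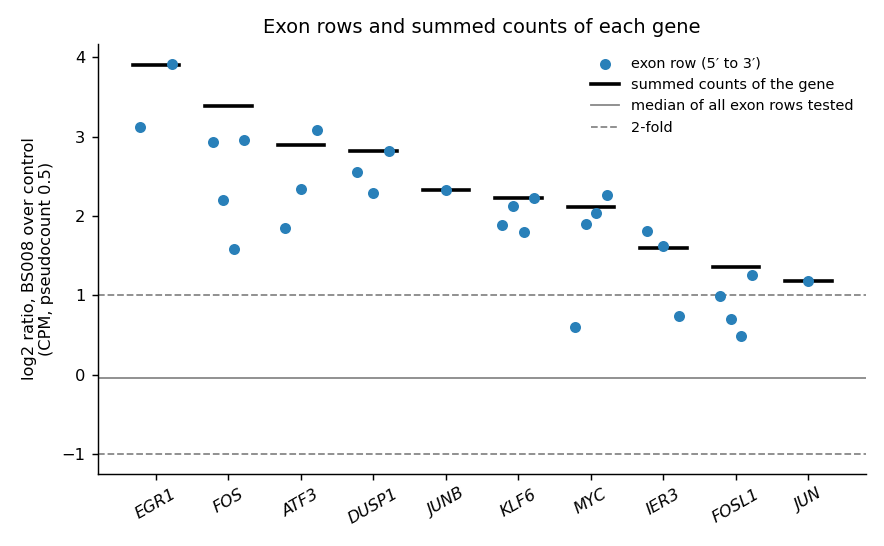
Log2 ratio of BS008 to control for the 29 exon rows with at least 10 reads (points, ordered 5′ to 3′ within each gene) and for the summed counts of each gene (black bars), with the median of all exon rows (-0.04) and the 2-fold limits as lines. All points lie above 0, and 24 of the 29 lie above the upper 2-fold limit.

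As the series was made to look at splicing, the share of each gene's reads that fell on each of its rows was compared between the libraries. JUN and JUNB have 1 row each, which left 28 rows of 8 genes. Shares were not computed for the other genes of the files, so the counts of rows below have no background. The rows of a gene are also not independent here, as a rise in one share lowers the others. The median absolute change in share was 1.97 percentage points, and 27 of the 28 rows changed by less than 10 points. The row above that limit was the last of ATF3 (212791469 to 212794114), which held 63.3% of the control reads of the gene (58.7 to 67.7%) and 74.5% of its BS008 reads (73.0 to 75.9%). The first ATF3 row with reads (212781994 to 212782272) went the other way, from 18.7% (15.3 to 22.6%) to 10.7% (9.67 to 11.8%). The row between them held 17.995% (14.7 to 21.9%) and 14.8% (13.7 to 16.1%), with intervals that overlap. In ATF3 the ratio of BS008 to control CPM was thus 4.48 (3.52 to 5.77), 6.47 (5.10 to 8.32) and 9.23 (8.15 to 10.5) from the upstream to the last row. Intervals of neighbouring rows overlap, and those of the upstream and the last row are apart.

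MYC had a like order with smaller steps. The ratio was 3.80 (3.58 to 4.04), 4.14 (3.97 to 4.31) and 4.85 (4.65 to 5.07) on its 3 main rows from 5′ to 3′, and the share of the last row went from 37.3% (36.1 to 38.4%) to 41.8% (41.2 to 42.3%). For MYC the intervals of the first pair of ratios overlap, and that of the last row lies above them. FOS had its lowest ratio on the last row, at 11.6 (8.66 to 15.99) against 16.8 (10.7 to 27.8) on the first, but these intervals overlap, and with 80 control reads smaller changes in share were not detectable. For KLF6 the 4 shares differed by at most 0.68 points between the libraries, and its rows had ratios of 4.35 to 5.23. Shares with intervals apart were found for 8 of the 28 rows, all of them in ATF3, MYC and IER3, with no like count over other genes. One of the IER3 rows is that with the length of a FLOT1 exon, whose share went from 7.12% (6.45 to 7.85%) to 4.03% (3.73 to 4.36%). Exon shares also move with the position of reads along a transcript, and junction reads were not analysed here.

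**Figure D3:**
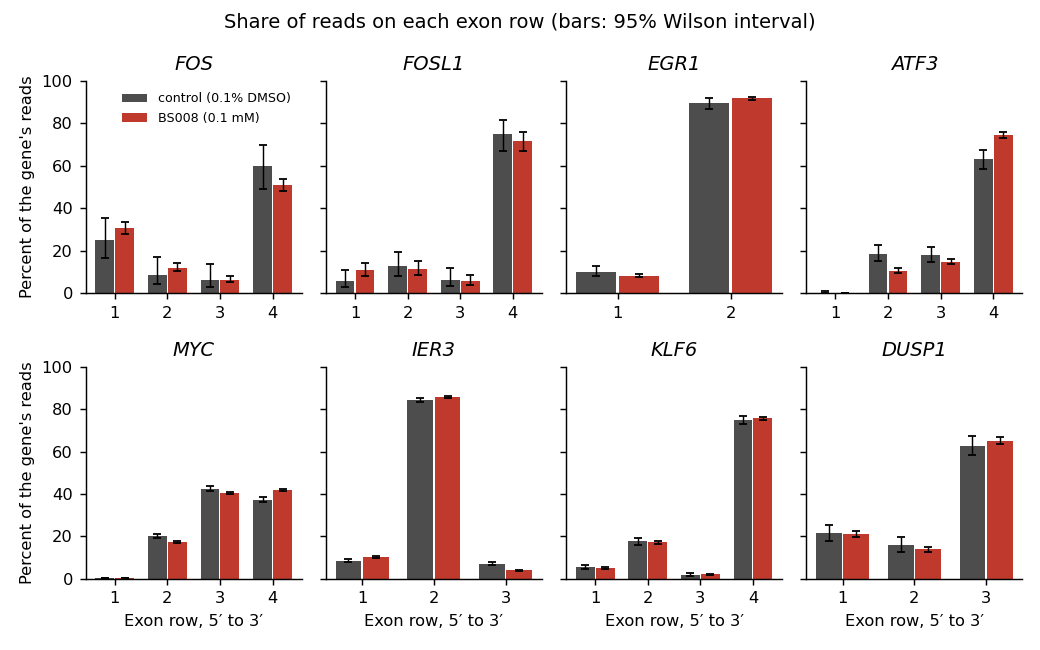
Percent of the reads of each gene that fell on each of its exon rows, numbered 5′ to 3′, in control (grey) and BS008-treated cells (red), with 95% Wilson intervals, for the 8 genes with more than 1 row. The last row of ATF3 changed the most (63.3% to 74.5%), and the shares of KLF6 differed by at most 0.68 points.

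A list of 28 other genes of the same pathways was taken next, with other AP-1, EGR and KLF factors, further immediate early genes, their upstream factors, feedback inhibitors of MAP kinase signalling and the partners of MYC. They were found by hg19 windows set from general knowledge, and a gene was kept if at least 80% of its rows had the length of an exon of that gene in GENCODE release 29. Only 6 of the 28 passed this check. Of these, 3 were called higher by 2-fold and 0 lower, with a median log2 ratio of 0.80 (single exon rows of the whole files were called higher in 3.73% of cases). MAFF, a small MAF protein, had 115 and 363 reads (ratio 3.27, 95% interval 2.64 to 4.07). NR4A1 (NUR77), an orphan nuclear receptor induced by growth signals, had 1741 and 8495 (5.05, 4.80 to 5.32), and DUSP4 (MKP-2), a phosphatase of the MAP kinases, had 22 and 162 (7.62, 4.87 to 12.5). The other 3 were AP-1 dimer partners, and none reached 2-fold on CPM with the pseudocount. ATF2 had 3623 and 3437 reads (ratio 0.982, 0.937 to 1.03), JDP2 had 423 and 439 (1.07, 0.938 to 1.23) and BATF3 had 16 and 7 (0.453, 0.158 to 1.16).

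The first and last exons of a gene often differ between annotations, so a looser check was added after the values had been seen. It keeps a gene with all its rows if at least 1 gap between neighbouring rows has the length of an intron of that gene, and 24 of the 28 genes passed it. Of these 24, 16 were called higher and 0 lower, with a median log2 ratio of 1.44. The median was 1.71 when EGR2, which had no control reads, was given 3 control reads and no pseudocount. Single exon rows of the whole files were called higher in 3.73% of cases and lower in 3.79%. No such share was computed for summed genes, which the pseudocount shrinks less than single rows. By the looser check the MAP kinase feedback genes were called higher in 4 of 4 cases. DUSP5, a phosphatase of ERK in the nucleus, had 46 control reads and 828 BS008 reads (ratio 18.6, 13.9 to 25.7), and DUSP6, its cytoplasmic counterpart, had 2611 and 10246 (4.06, 3.89 to 4.24). DUSP4 had 50 and 392 over all its rows (8.12, 6.04 to 11.1), and SPRY4, a Sprouty inhibitor of receptor tyrosine kinase signalling, had 2138 and 6559 (3.18, 3.02 to 3.34).

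Of the 4 EGR and KLF genes, 3 were called higher. KLF4, a zinc finger factor of differentiation, had 54 and 722 reads (ratio 13.8, 10.5 to 18.6), KLF10, a TGF-beta inducible factor, had 1570 and 6928 (4.57, 4.33 to 4.83), and EGR3 had 4 and 92 (23.8, 8.99 to 89.3). EGR2 had 0 control reads and 17 BS008 reads. Its ratio was 5.87 when 3 reads were taken for the control library, and the exact 95% interval of the ratio begins at 4.27. EGR2 was not called because of the pseudocount. Of the 5 further immediate early genes, 4 were called higher. BTG2, an antiproliferative gene, had 567 and 3506 reads (6.402, 5.86 to 7.01), TRIB1, a pseudokinase gene, had 2075 and 4750 (2.37, 2.25 to 2.50) and PHLDA1 had 3653 and 7544 (2.14, 2.055 to 2.225). NR4A1 was the fourth, with 1803 and 9019 reads over all its rows (5.18, 4.92 to 5.45). IER2 had 1133 and 1680 (1.54, 1.42 to 1.66).

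The AP-1 factors were more mixed, with 2 of 5 called higher. JUND and FOSB are not in this count, as the check of intron lengths did not keep them, and are given under the other observations. FOSL2 (FRA-2), a further FOS family gene, had 281 and 1581 reads (ratio 5.83, 5.13 to 6.64), and MAFF had 702 and 2374 over all its rows (3.50, 3.22 to 3.815). ATF2, with 4579 and 5152 reads over all its rows, JDP2 and BATF3 were not called. Of the upstream factors of the CArG box, ELK1 was called higher with 1046 and 2366 reads (2.34, 2.18 to 2.52). On its rows of matching length alone, ELK1 had 394 and 702 reads (1.84, 1.63 to 2.09) and was not called. SRF, which codes for serum response factor, was not called, with 3294 and 3391 reads (1.07, 1.02 to 1.12). In the MYC network, MXD1 had 810 and 3247 reads (4.15, 3.84 to 4.49) and MXI1 978 and 2009 (2.13, 1.97 to 2.30, against 1.86 and no call on its rows of matching length). Both code for proteins that compete with MYC for MAX. MAX itself had 1376 and 1671 reads (1.26, 1.17 to 1.35) and MNT, another MAX partner, had 1338 and 1151 (0.891, 0.823 to 0.9645).

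**Figure D4:**
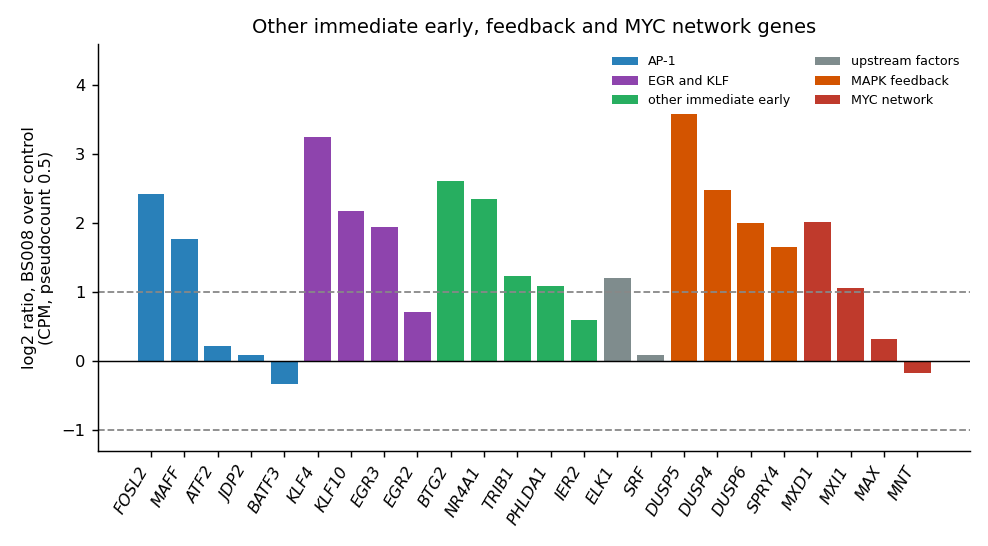
Log2 ratio of BS008 to control (CPM, pseudocount 0.5) for the 24 further genes kept by the check of intron lengths, coloured by group, with the 2-fold limits as dashed lines. Of the 24, 16 lie above the upper limit, among them 4 of 4 MAP kinase feedback genes, and 0 lie below the lower limit. The share over all genes was not computed.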

How the data were processed

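Libraries were made with an mRNA-seq sample kit from Huh-7 cells in 0.1% DMSO or 0.1 mM BS008 for 24 h, 1 for each condition. For every exon row, the authors deposited a raw read count and an RPKM value. The submitters' processing notes name hg19, and the aligner, counting tool and annotation were not given in the sources used here. The deposited RPKM values were returned from the counts to within 4.7e-06. Whether the counting used strand is not stated, and the 30 rows overlap no other row on either strand.

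Counts were summed over the rows inside the window of each gene. Of 20 gaps between neighbouring rows, 14 had the length of an intron of the same gene in GENCODE release 29 (GRCh38). Only lengths were compared, and no coordinates were converted. Ratios of CPM carry exact conditional binomial 95% intervals, and shares carry Wilson intervals. A call needed 2-fold on CPM with a pseudocount of 0.5 and at least 10 reads in either library. The call was tested on simulated counts that held the sampling of reads only, so that test does not cover a spread between cultures or libraries. All 10 members are named, and of the pathway list those called 2-fold and the 4 highest in control cells. BATF3, EGR2, IER2, MAX, MNT, FOSB and JUND were named after their values were seen. The members and lists were chosen with earlier results of these data known. Alternatives were other pseudocounts, read minimums, thresholds and library sizes (TMM factors from edgeR 4.0.16 in R 4.3.3), rows matching in length only, and the looser checks of the pathway list. Python 3.11.15 was used with pandas 2.3.3, scipy 1.17.1 and numpy 2.4.6.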

Additional observations from a re-analysis of the deposited data

How the results depend on the processing

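All 10 genes stayed at least 2-fold higher with pseudocounts of 0.1 and 1, with TMM factors, with a library total without mitochondrial rows, and without rows that overlap another (there were none). Of the 58 log2 ratios recomputed for single genes, 58 were at least 1, the lowest being 1.17, and 7 moved by more than their counting interval. The 58 include 10 from the setting without overlapping rows, which repeat the main values. With rows of matching length alone, a setting that leaves out JUN, JUNB and IER3, the log2 ratio was 2.21 for FOS (a single row of 7 and 128 reads, whose ratio without the pseudocount was 18.9), 2.34 for ATF3, 2 for MYC and 2.29 for DUSP1. With TMM factors, which shift all ratios by 0.05, it was 2.16 for MYC and 1.64 for IER3. The number of rows called higher lay between 23 (at least 100 reads, against 5.34% of all rows) and 28 (1.5-fold, against 11.5% of all rows), was 27 with a pseudocount of 0.1, and had 0 called lower in every setting. The number of pathway genes called higher was 3 in the 8 settings other than the identity check, 9 when at least 50% of rows had to match in length, and 16 with the check of intron lengths. Of the 7 calls gained in this last step, 5 were genes new to the list and 2 (ELK1 and MXI1) were genes already on it whose rows were now all summed. Rows whose share changed past the limit numbered 2 with rows of matching length alone and 5 with a limit of 5 points.

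No paired analysis was possible because each condition has 1 library, which also leaves no replicate to omit. Depth limits the genes with few control reads, such as EGR2 (0) and EGR3 (4), and more depth would not show the spread between cultures.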

Other observations

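The check of intron lengths kept none of the other 4 genes of the pathway list. The windows of JUND and IER5 held 1 row each, so they had no gap and could not pass it. For JUND, IER5 and ZFP36 no length matched, so their windows are given without a check that the rows belong to the named gene. The JUND window, a JUN family gene without introns, had 2469 control reads and 1583 BS008 reads (ratio 0.664, 95% interval 0.623 to 0.707), while the row of JUN had a ratio of 2.28 and that of JUNB 5.34. The FOSB window had 93 and 169 reads (1.88, 1.45 to 2.45), and its 2 rows of matching length, which passed the check of at least 50% of rows, had 81 and 148 (1.89, 1.43 to 2.51). The IER5 window had 257 and 645 (2.60, 2.25 to 3.01), and that of ZFP36, which codes for an mRNA decay factor that acts on short-lived transcripts, had 1005 and 5258 (5.42, 5.06 to 5.80). Of the JUN and FOS family windows, JUND was the only one with a lower CPM after BS008.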
